A study of Mus musculus with 3 samples.

Results

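Leukocyte adhesion molecules of endothelium were measured in cells sorted from the glomeruli of adult mouse kidneys. The 8 genes taken were Icam1, Icam2, Vcam1, Madcam1, Alcam, Sele, Selplg and Cd99l2, chosen by symbol and not by their values. Each was found with 1 probe set that names it alone, so that 8 of 21789 such probe sets and 8 of 19938 genes are described. The mice carried the transgene Tg(TIE2GFP)287Sato, which puts green fluorescent protein under the promoter of Tie2 (gene symbol Tek), a receptor of endothelial cells, on a mixed and mainly CD-1 background. They were adults of stage TS28 and of unknown sex, and neither their exact age nor a treatment is given. Kidney cortex was digested with collagenase, glomeruli were caught on a sieve and trypsinised, and fluorescent cells were sorted. All 3 arrays, replicates 1, 3 and 5, hold RNA of 1 adult kidney each and form 1 group, so there is no contrast between conditions. The Tie2 promoter is also used by some blood-borne monocytes, and a sort by this reporter alone could hold them.

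Leukocytes leave the blood in steps. Selectins on the vessel wall catch the sugars of their ligands and slow the cell, immunoglobulin-like molecules such as ICAM and VCAM then hold the integrins of the leukocyte, and further proteins at the endothelial junctions guide it through. Resting endothelium carries Icam2 and little of Sele or Vcam1, which inflammatory cytokines induce through NF-kappaB. The study asked about cell adhesion molecules in the glomeruli of db/db mice, a model of diabetes, and those mice were not analysed here. The question that the present arrays can answer is which of these genes were measured above a fixed level in adult glomerular endothelial cells, and how far the arrays differed.

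Values are log2 signals per probe set, and each mean is given ± SD over 3 arrays (n = 3). The level was 100, or 6.64 on the log2 scale, a number taken from the study, which asked for a raw signal of at least 100 in 3 samples in its own software. Here it was applied to the mean of the deposited log2 signals, so the inputs differ. Each probe set was tested against it with limma, two-sided, with Benjamini-Hochberg adjustment over all 21789 probe sets, and a gene was called above or below at an adjusted p under 0.05. The p-values measure the spread between these arrays, which may be technical. For a probe set with the same value on all 3 arrays, that spread is 0. Its interval and p-value then rest on the variance that limma took from other probe sets. This holds for Icam1 and Madcam1. Probe sets bind with different efficiency, so each gene was set against the level and not against another gene. Replicates 1, 3 and 5 had medians of 4.85, 4.80 and 4.79 over all 35557 probe sets. Markers of endothelium were read beside the label of the cells. Of 12 such genes, 12 were called above the level, where 15.8% of all probe sets tested were above. Among them were Pecam1 at 10.26 ± 0.21 and Cdh5 at 10.75 ± 0.32, both junction proteins. The list was chosen with earlier results of these data known. It holds Tek, whose promoter drove the sorted reporter, so the count is a description and not an independent check.

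Icam2 alone of the 8 adhesion genes passed the test above the level, 6 passed it below, and Vcam1 passed neither way. Over all probe sets tested, 15.8% were called above, 72.5% below and 11.6% neither, so the share of adhesion genes above or below lies near that of all probe sets. With the variance prior taken from all probe sets the calls of the 8 genes stayed 1 above, 6 below and 1 neither, where 16.8% of all probe sets were above and 74.1% below. The median of their mean levels was 5.55, against 5.04 for all probe sets tested. In 6 genes every array stayed under the level.

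**Figure D1:**
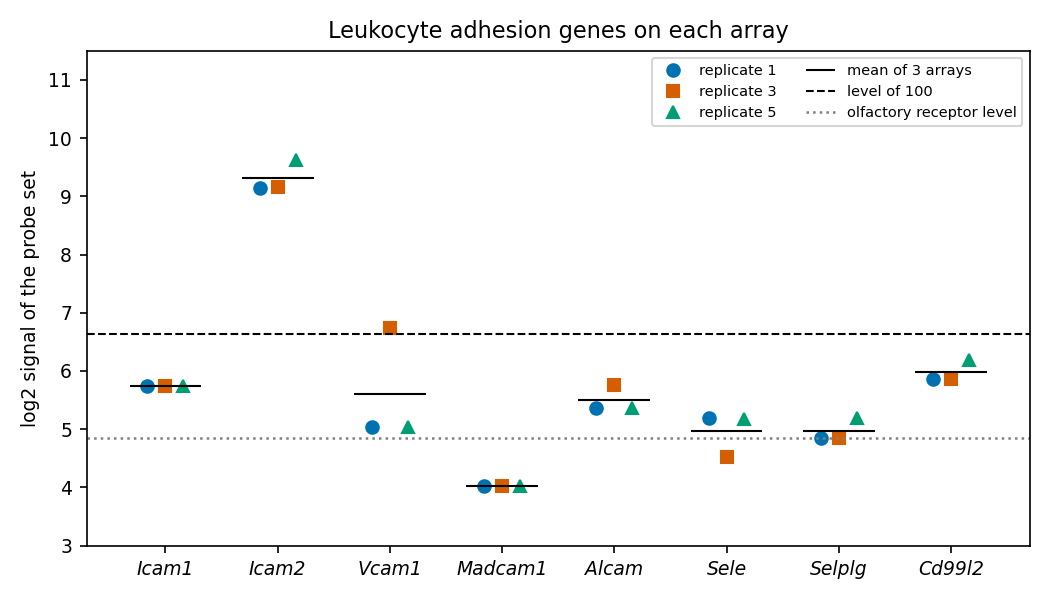
Log2 signal of the probe set of each adhesion gene (horizontal axis) on replicates 1, 3 and 5 (points), with the mean of the 3 arrays (short lines), the level of 100 at 6.64 (dashed) and the olfactory receptor level at 4.85 (dotted). All 3 arrays of Icam2 lie above the dashed line, and of the other genes only Vcam1 crosses it, on replicate 3.

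Icam2 encodes a ligand of the leukocyte integrin LFA-1 that endothelium carries without stimulation. Its probe set, 10392177, had log2 signals of 9.14, 9.16 and 9.62 on replicates 1, 3 and 5. All 3 arrays were over the level, and replicate 5 was the highest. The mean of 9.31 ± 0.27 was 2.66 above the level on the log2 scale, or 6.33-fold (95% interval 4.65 to 8.64, limma adjusted p = 0.00017).

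Icam1, the inducible relative of Icam2 and a ligand of LFA-1 and Mac-1, had the same log2 signal of 5.73 on each array (probe set 10583519). It lay 0.91 below the level on the log2 scale, which makes the level 1.88-fold higher than the signal (95% interval of the log2 difference -1.24 to -0.58, limma adjusted p = 0.00205). The SD of 0 does not mean that nothing varied. The exact value of Icam1 was shared by 14, 20 and 25 probe sets on replicates 1, 3 and 5, and 54.1% of all probe sets tested had an identical value on the 3 arrays (within 1e-09).

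Vcam1, which binds the integrin VLA-4 of lymphocytes and monocytes, was the only one of the 8 genes whose arrays lay on both sides of the level. Probe set 10501608 had log2 signals of 5.04, 6.75 and 5.03 on replicates 1, 3 and 5. Replicate 3 alone was over the level. The mean was 5.60 ± 0.99, and the difference from the level had a 95% interval from -2.20 to 0.12 on the log2 scale (limma adjusted p = 0.0752). Without replicate 3 Vcam1 was called below, at a difference of -1.61 (limma adjusted p = 0.000438).

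Madcam1, the receptor for lymphocytes that home to the gut, is known from mucosal venules. Probe set 10364444 had 4.02 on each array, a log2 signal that 305, 305 and 309 probe sets shared on replicates 1, 3 and 5. The level was 6.15-fold higher (95% interval 4.91 to 7.72, limma adjusted p = 8.42e-05).

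Alcam, a ligand of CD6 on T cells, had log2 signals of 5.37, 5.76 and 5.37 (probe set 10439895). Replicate 3 was the highest and the other arrays were equal, at a value shared by 96 and 102 probe sets on replicates 1 and 5. The mean of 5.50 ± 0.23 was below the level, which was 2.22-fold higher (95% interval 1.66 to 2.95, limma adjusted p = 0.00208).

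Sele encodes E-selectin, a selectin that activated endothelium is known to make. Its log2 signals were 5.20, 4.52 and 5.18 on replicates 1, 3 and 5 (probe set 10351182). Replicate 3 was the lowest, and all 3 arrays lay under the level. The mean was 4.97 ± 0.39, with the level 3.19-fold higher (95% interval 2.19 to 4.65, limma adjusted p = 0.00143).

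Selplg encodes PSGL-1, the selectin ligand found mainly on leukocytes. Probe set 10532744 had log2 signals of 4.85, 4.85 and 5.19. Replicates 1 and 3 held a value shared by 174 probe sets, and replicate 5 was higher by 0.33. The mean of 4.97 ± 0.19 was below the level, which was 3.20-fold higher (95% interval 2.44 to 4.20, limma adjusted p = 0.000469). Beside it, all 17 leukocyte markers were called below, with Ptprc, the common leukocyte antigen, at 4.77 ± 0.18 and the macrophage gene Cd68 at 5.29 ± 0.03. Their summed linear signals were 399, 391 and 360 on replicates 1, 3 and 5, and limma called 0 of 17 above the level, whether p was adjusted or not (16% of all probe sets tested were above at an unadjusted p under 0.05), and also 0 when the variance prior was taken from all probe sets. Against the olfactory receptor level of 4.85 (the dotted line in the plot of the 8 genes by array) 3 of 17 were above. Over all probe sets, 44.4% were called above that level and 72.5% were called below 100.

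Cd99l2, which takes part in the passage of leukocytes across the vessel wall and its basement membrane, was called below the level. Probe set 10604932 had log2 signals of 5.87, 5.87 and 6.19. Replicate 5 was the highest, at a value shared by 31 probe sets, and the other arrays were equal. The mean was 5.98 ± 0.19 and the level 1.59-fold higher (95% interval 1.21 to 2.08, limma adjusted p = 0.0108).

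**Figure D2:**
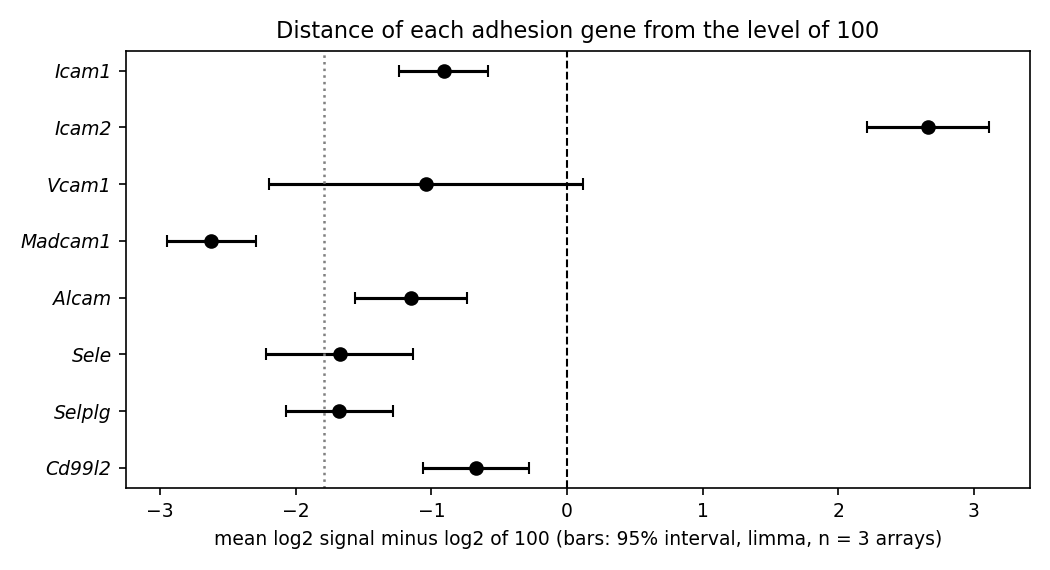
Mean log2 signal of each adhesion gene minus log2 of 100 (horizontal axis, points) with its 95% interval from limma over 3 arrays (bars). The dashed line is the level of 100 and the dotted line the olfactory receptor level. The interval of Icam2 lies right of the dashed line, that of Vcam1 spans it, and the other 6 lie left of it.

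A gene below 100 was not thereby shown to be silent. The 95th percentile of 1035 probe sets for olfactory receptors, genes of the nose, gave a second level of 28.9, or 4.85 on the log2 scale, the same value that Selplg held on replicates 1 and 3. Against it, limma called 4 adhesion genes above, where 44.4% of all probe sets were above and 36.2% below. These were Icam2, Cd99l2 (1.12 above it on the log2 scale), Icam1 (0.88) and Alcam (0.64). Madcam1 was called below the olfactory receptor level, at a log2 difference of -0.83. Vcam1, Sele and Selplg were called neither, at 0.75, 0.11 and 0.11 above it. So Icam1, Alcam and Cd99l2 had signals between both levels on all 3 arrays.

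Promoter windows from RefSeq (GRCm38.p6), of 250 bases before and 50 after the annotated start, were held for 5 of the 8 genes: Sele, Icam1, Madcam1, Alcam and Cd99l2. The windows of Icam1, Sele and Madcam1 are shown because these genes are known to be induced by cytokines through NF-kappaB and were called below the level of 100 here. Each window is written 5′ to 3′ on the strand of the gene, with capitals for a kappaB-like motif (GGANNTTCC, either strand) and for the TATA motif (TATAAA, either strand).
Icam1, chr9:21015690-21015989, plus strand: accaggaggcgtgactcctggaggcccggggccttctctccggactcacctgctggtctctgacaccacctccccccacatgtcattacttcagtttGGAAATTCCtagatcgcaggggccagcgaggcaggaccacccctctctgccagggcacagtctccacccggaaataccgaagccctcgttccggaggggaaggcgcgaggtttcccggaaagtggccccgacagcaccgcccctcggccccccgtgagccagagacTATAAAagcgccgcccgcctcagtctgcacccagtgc
Sele, chr1:164047984-164048283, plus strand: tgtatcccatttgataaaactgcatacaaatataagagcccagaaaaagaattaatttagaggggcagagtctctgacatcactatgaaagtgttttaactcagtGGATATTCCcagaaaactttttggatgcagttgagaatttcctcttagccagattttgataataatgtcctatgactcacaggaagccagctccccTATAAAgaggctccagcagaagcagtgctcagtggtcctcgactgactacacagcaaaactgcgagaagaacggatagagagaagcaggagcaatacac
Madcam1, chr10:79664309-79664608, plus strand: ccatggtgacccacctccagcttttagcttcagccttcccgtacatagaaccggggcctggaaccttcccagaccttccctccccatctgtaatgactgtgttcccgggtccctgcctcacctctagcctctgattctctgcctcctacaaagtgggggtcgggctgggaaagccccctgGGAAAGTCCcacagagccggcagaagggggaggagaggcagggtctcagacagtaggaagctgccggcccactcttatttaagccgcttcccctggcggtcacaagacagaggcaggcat
The kappaB-like match began at base -153 from the annotated start in Icam1, at -145 in Sele and, on the opposite strand, at -70 in Madcam1. These letters occur in 4.26% of 32851 promoter windows of the same length, and TATAAA, found at -49 in Sele and at 14 in Icam1, in 13.6%. The windows of Alcam and Cd99l2 held neither motif. The motif letters were chosen after the windows had been read, and a match describes the sequence and is not a measured site.

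The other genes of leukocyte adhesion were read from lists by role. Of 91 genes listed, 84 were measured, and 28 (33.3%) passed the limma test above 100, 45 passed it below, and 11 did neither. The median of their mean levels was 6.04, against 5.04 for all probe sets tested. Over all probe sets tested, 15.8% were above, 72.5% below and 11.6% neither. The lists hold Pecam1, Cdh5, Esam, Emcn and Cd34, which are also among the endothelial markers. Selp, the gene of P-selectin, was among the listed genes not analysed here.

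**Figure D3:**
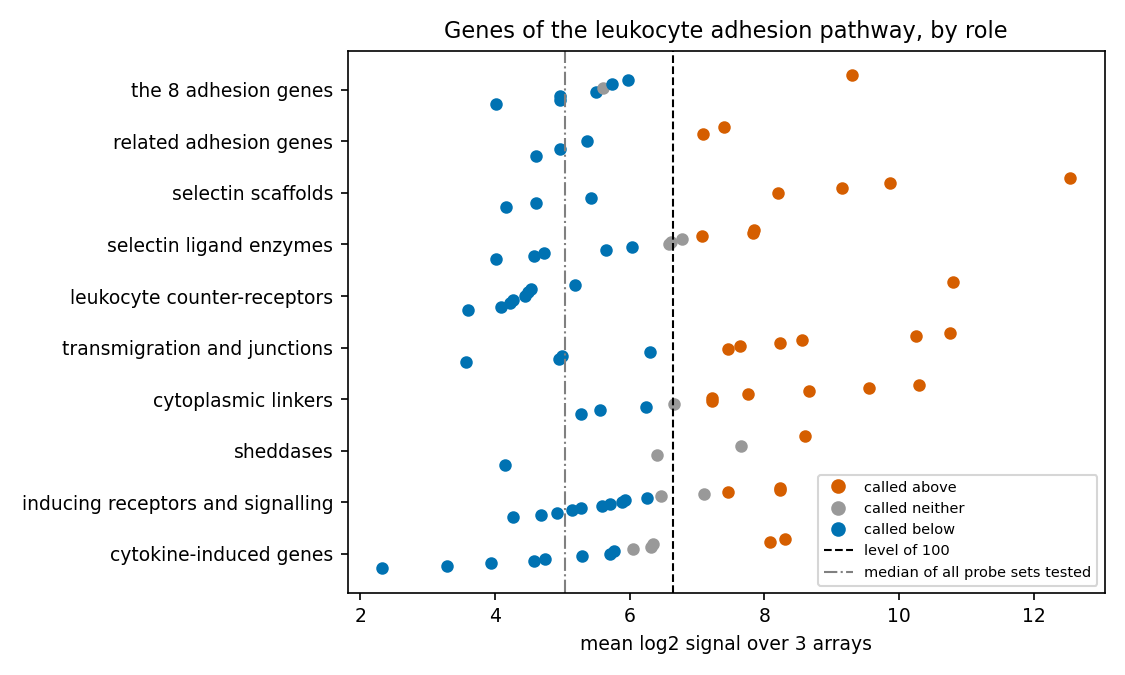
Mean log2 signal over 3 arrays (horizontal axis) of each measured gene (points) in the lists by role (rows), coloured by the limma call against the level of 100 (dashed line). The dash-dotted line is the median of all probe sets tested, 5.04. Transmigration and junction genes and cytoplasmic linkers have 6 of 10 genes above the level each, whereas the leukocyte counter-receptors have 8 of 9 below. Of all probe sets tested, 15.8% are above and 72.5% below.

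Genes related to the adhesion molecules by family were split. Mcam (7.09 ± 0.12) and Bcam, a laminin receptor (7.41 on each array), were called above the level. Icam4 and Icam5, members of the ICAM family known from red cells and neurons, were called below at 4.97 and 4.60 on each array. Of 5 such genes measured, 2 were above and 3 below, where 15.8% of all probe sets were above and 72.5% below.

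Of 7 proteins that can carry selectin-binding sugars, 4 were called above and 3 below, where 15.8% of all probe sets were above and 72.5% below. Emcn (endomucin) was at 12.54 ± 0.42, Podxl (podocalyxin) at 9.86 ± 0.08, Cd34 at 9.15 ± 0.14 and Glg1 at 8.21 on each array, all above. Glycam1 at 4.17, Cd44 at 4.60 and the leukocyte sialomucin gene Spn at 5.43, each the same on all arrays, were below. Emcn and Cd34 were also among the endothelial markers.

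The enzymes that build selectin ligands were measured unevenly. Of 11, 3 were called above, 5 below and 3 neither, where 15.8% of all probe sets were above and 72.5% below. Both fucosyltransferases that cap these sugars, Fut4 at 4.59 on each array and Fut7 at 4.73 ± 0.06, were below. B4galt1, a galactosyltransferase, was above at 7.84 ± 0.07 and the sialyltransferase gene St3gal6 at 7.08 ± 0.10. Gcnt1, which starts core 2 branches, had 7.79, 8.83 and 6.92 on replicates 1, 3 and 5. It was called above at an adjusted p of 0.0465, and the call was lost with the variance prior from all probe sets (adjusted p = 0.114).

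Of 9 genes for receptors on leukocytes that bind the adhesion molecules, 8 were called below and 1 above, where 72.5% of all probe sets were below. Itgal, the alpha chain of LFA-1, was at 4.27 and Itgam, that of Mac-1, at 3.60, each on all arrays. The exception was Itgb1, the integrin beta 1 chain that nearly every adherent cell carries, at 10.81 ± 0.08.

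Of 10 genes of junctions and transmigration, 6 were called above the level and 4 below, where 15.8% of all probe sets were above. Besides Pecam1 and Cdh5, the junctional adhesion molecules Jam2 at 8.57 ± 0.49 and F11r at 8.23 ± 0.18 were above. Of the 10 linkers of adhesion molecule tails to actin, 6 were above, 3 below and 1 neither. Among the ERM proteins, which bind the tails of ICAM molecules, Rdx (radixin) at 10.30 ± 0.13 and Msn (moesin) at 9.56 ± 0.10 were above. Ezr (ezrin) was below at 6.24 ± 0.17 (adjusted p = 0.0466). Actn4, an actin crosslinker, was at 8.66 ± 0.13 and Vcl (vinculin) at 7.75 on each array.

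Of 4 proteases that can shed adhesion molecules, 1 was above, 1 below and 2 neither. Among all probe sets tested, 15.8% were above, 72.5% below and 11.6% neither. Adam10 was above at 8.60 ± 0.37. Adam17 had 8.61, 6.22 and 8.12 on replicates 1, 3 and 5 and was called neither (adjusted p = 0.138), with replicate 3 under the level.

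Of 19 genes for receptors and signalling proteins through which cytokines induce adhesion genes, 15 were measured. Il1r1, Ripk1, Chuk and Nfkb1 were not. Of the 15 genes, 3 were above, 10 below and 2 neither. Those shares lie near the 15.8% above, 72.5% below and 11.6% neither of all probe sets tested. Tlr4, the receptor for endotoxin, was at 8.24 ± 0.01, the interferon gamma receptor gene Ifngr1 at 8.23 ± 0.51 and the NF-kappaB subunit gene Rela at 7.46 ± 0.14. The TNF receptor gene Tnfrsf1a had 7.02, 6.27 and 8.01 and was called neither (adjusted p = 0.304), while Tnfrsf1b was below at 5.27 on each array. Of 13 genes that cytokines induce or chemokines that endothelium presents, 2 were above, 8 below and 3 neither. Nfkbia, the NF-kappaB inhibitor and target, was at 8.09 and the growth factor gene Csf1 at 8.31, each on all arrays. Tnfaip3, another NF-kappaB target, was below at 4.75 on each array.

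The range between the highest and the lowest array passed 1 (log2) in 1 of 8, Vcam1, where it was 1.72 or 3.28-fold. Over all probe sets tested the share was 5.73%. The other ranges lay between 0 and 0.68, the latter in Sele. A range above 0.5 was found in 2 of 8, Vcam1 and Sele, and in 13.95% of all probe sets tested. Identical values on all 3 arrays were found in 2 genes (Icam1 and Madcam1), and 3 more (Alcam, Selplg and Cd99l2) had the same value on a pair of arrays. Over all probe sets tested, 25.7% had the same value on a pair of arrays only. Identical values on all 3 arrays were more frequent at low signals, in 62.7% of probe sets with a mean below the level and in 22.5% of those at or above it.

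Replicate 3 held the highest Vcam1 value and the lowest Sele value. Of the 1248 probe sets with a range above 1, replicate 3 was the highest in 33.4% and the lowest in 46.2%. Of the 12 endothelial markers, 10 were lowest on replicate 3 when any difference between arrays was counted. This count sets no limit on the range, so the shares among the 1248 probe sets are not its background. No share over all probe sets was taken at any difference. Kdr was at 10.83, 9.53 and 11.18 on replicates 1, 3 and 5. Kdr, a VEGF receptor gene, and Ehd3, plotted beside it, were chosen after their values were seen. Emcn had 12.69, 12.07 and 12.87. A list of 12 genes of arterial endothelium and its wall was drawn up after the replicate 3 values had been seen, so its values are a description and support nothing. Mgp, a gene of the vessel wall, had 5.37, 10.18 and 4.80 and the connexin gene Gja5 7.37, 8.70 and 5.82, whereas the Notch target gene Hey1 had 6.63, 5.22 and 7.06 and the ephrin gene Efnb2 10.73, 10.82 and 11.35. Mgp and Gja5 were thus highest on replicate 3, Hey1 was lowest there and Efnb2 was highest on replicate 5. Of the 12 genes in this list, 9 were highest on replicate 3 and 1 was lowest there, again counting any difference between arrays. Their summed linear signals were 2889, 5298 and 3786 on replicates 1, 3 and 5. Cxcl12, a chemokine gene also chosen after its values were seen, had 5.64, 6.86 and 5.64, with the highest value on replicate 3 as for Vcam1 and the other arrays equal. The probe sets whose 3 deviations from their mean were closest to those of Vcam1 (Euclidean distance, log2) were Pdlim1, Pip5k1b and Mirlet7f-1, at distances of 0.00828, 0.0118 and 0.0288, over 3 arrays. In all, 25 probe sets lay within 0.2 of Vcam1. Pdlim1 had 6.26, 7.97 and 6.26, Pip5k1b 3.83, 5.52 and 3.83, and Mirlet7f-1 3.08, 4.75 and 3.08. Mirlet7f-1 was thus under the olfactory receptor level on each array, and Pip5k1b on replicates 1 and 5. Genes that tissue dissociation is known to induce gave summed linear signals of 2091, 1505 and 1681 on replicates 1, 3 and 5. Of 9, 2 were called above (Dusp1 at 9.64 and Jun at 8.99), 6 below and 1 neither. These counts of dissociation genes stand beside 15.8% of all probe sets above and 72.5% below. The part of these genes in the Vcam1 value was not tested, and in sorted bulk RNA more cells of a type cannot be told apart from more RNA per cell.

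**Figure D4:**
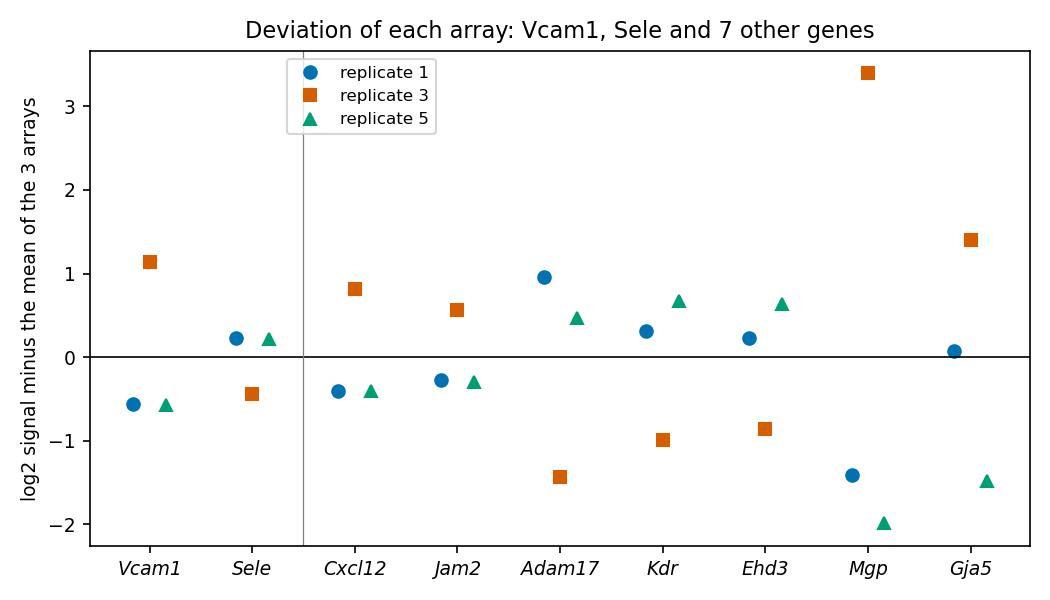
Log2 signal on each array minus the mean of the 3 arrays (vertical axis) for Vcam1 and Sele (left of the grey line) and 7 other genes chosen after their values were seen, with replicates as points. Replicate 3 is the highest for Vcam1, Cxcl12, Jam2, Mgp and Gja5 and the lowest for Sele, Adam17, Kdr and Ehd3.

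Mesangial cells, which lie between glomerular capillaries, and parietal epithelium can also carry Vcam1, and their markers were read beside it. All 10 mesangial and smooth muscle genes were called below the level of 100, with Pdgfrb at 4.51, 4.13 and 4.03 and Itga8 at 6.08, 4.94 and 4.75 on replicates 1, 3 and 5. Their summed linear signals were 320.2, 283 and 273 on replicates 1, 3 and 5. All 5 parietal epithelial genes were below, with Cldn1 at 3.21 on each array and Pax8 at 5.45 ± 0.05. Their summed signals were 153, 171 and 162. Krt8 had 5.77, 6.11 and 5.98 on replicates 1, 3 and 5, and Pax8 5.42, 5.51 and 5.42. Cldn1, Pax2 and Krt18 were each identical on all arrays. The mesangial and smooth muscle sum was thus highest on replicate 1, where Itga8 was highest. The parietal sum was highest on replicate 3, where Krt8 and Vcam1 were highest. The part of either cell type in the Vcam1 value was not tested. Podocyte (5 of 5), proximal tubule (8 of 8) and platelet and red cell genes (5 of 5) were below as well, with Nphs1 at 5.47, Slc34a1 at 5.37, Lrp2 at 4.33 and Pf4 at 3.38, each on all arrays. Ppbp, a platelet chemokine gene, was at 5.88 ± 0.37. These counts stand beside 72.5% of all probe sets below 100. Against the olfactory receptor level, where 44.4% of all probe sets were above, 1 of 10 mesangial and smooth muscle, 2 of 5 parietal, 3 of 5 podocyte, 1 of 8 proximal tubule and 3 of 5 platelet and red cell genes were above.

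Markers of venous endothelium, where leukocytes are known to leave the blood in most organs, were read too. Of 5 measured, 3 were called below 100, 1 above and 1 neither, where 72.5% of all probe sets were below. Against the olfactory receptor level 4 of 5 were above and 1 below, where 44.4% of all probe sets were above. Nr2f2, a factor of venous identity, was at 5.77 on each array and Vwf at 5.33 ± 0.11, both below, and Ephb4 was above at 7.20 ± 0.20.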

How the data were processed

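Sorted cells gave RNA that was amplified with the NuGEN WT-Ovation Pico kit and measured on Affymetrix Mouse Gene 1.0 ST arrays. The authors deposited log2 signals per probe set, made with Affymetrix Expression Console according to the submitters' processing notes. The study names RMA normalization in its results, for its own analysis in GeneSpring. The median polish of RMA can return equal summaries over few arrays, and whether that produced the identical values found here was not tested. Detection flags were not used here. With 3 arrays, the precision of each mean is limited.

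Of 35557 probe sets, 21789 name 1 gene in the platform annotation, 1621 name several and 12147 are not named. Of those with 1 gene, 21698 matched RefSeq by gene identifier. Where a gene had more than 1 probe set, the highest stood for it. Differences from log2 of 100 were fitted with limma 3.58.1 in R 4.3.3 by an intercept over 3 arrays. The variance prior came from the 4406 probe sets with 3 distinct values (SD 0.288, 2.03 degrees of freedom), because identical values have no variance. The procedure was tested on simulated data.

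The genes, lists and motifs were chosen with earlier results of these data known. Named were the 8 adhesion genes, the first 2 genes of each list, up to 4 genes called above with the highest means per list by role and up to 3 per marker list, and the 3 probe sets most like a gene whose range passed 1. Alternatives changed the variance prior, the level, the probe sets in the fit, the scaling of arrays, the summary of genes with several probe sets and the arrays used. Promoter windows came from RefSeq.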

Additional observations from a re-analysis of the deposited data

How the results depend on the processing

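The level decided most calls. At the olfactory receptor level, 4 adhesion genes were above, 1 below and 3 neither, and 54 of the 84 other genes of leukocyte adhesion were above and 14 below. The sign turned for Alcam (0.64), Cd99l2 (1.12), Icam1 (0.88), Sele (0.11), Selplg (0.11) and Vcam1 (0.75), each a log2 difference from that level. Without replicate 3 Vcam1 was called below (-1.61). Leaving out 1 array at a time, 1 to 1 adhesion genes were above, 6 to 7 below and 0 to 1 neither, 2 to 4 had equal values and 0 to 1 had a range above 1. Of the other genes 26 to 29 were above, 41 to 43 below and 12 to 16 neither. With only probe sets reaching the olfactory receptor level on some array, 7 adhesion genes and 62 others entered and 19 of the others were below. With arrays shifted to the same median or quantile normalized, 0 adhesion genes had identical values on all arrays. For the shift this was fixed in advance, because arrays moved by different amounts cannot keep equal values. The count therefore does not tell how the equal values arose. Over all probe sets tested, 3451 were above, 15803 below and 2535 neither. The olfactory receptor level gave 9680, 7889 and 4220, the filter on dim probe sets 6034 below, all 35557 probe sets 25507 below and 5035 neither, and the median shift 1674 neither. The variance prior was estimated anew in each setting. Probe sets with equal values before the median shift counted as distinct after it and entered the prior. The causes of the changed counts were not tested. No paired analysis was possible because all 3 arrays form 1 group. An exact sign test over 3 arrays could not give a p below 0.25.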
